A study of Mus musculus with 12 samples.

Results

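The genes described here encode the proteins of the cytosolic ribosome. They were taken from the target names of a mouse whole-genome BeadChip as every name made of RPL, RPS or RPLP, a number and at most a paralogue or chromosome suffix, with names that begin with LOC left out. This gave 67 of the 30774 names on the array, measured by 99 probes. Of the 67 genes, 36 encode proteins of the large subunit, 29 encode proteins of the small subunit and 2, Rplp1 and Rplp2, encode the acidic proteins of the large subunit's stalk. The 67 include 6 paralogues of a main gene, namely Rpl3l, Rpl39l, Rpl22l1, Rpl7l1, Rps27l and a gene that the array calls RPS4Y2, which is Rps4l by synonym. Rpl5, Rpl11, Rpl10 and Rplp0 were not analysed here.

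RNA came from end-stage lymphomas of C57BL/6 mice, and every tumour arose on the Eµ-Myc transgene, which places the oncogene Myc under the enhancer of the immunoglobulin heavy chain locus, active in B-lineage cells. Both genotypes therefore share the transgene. The 6 Smchd1 wildtype lymphomas carried intact Smchd1, and the 6 Smchd1 null lymphomas were homozygous for a gene trap in Smchd1, which encodes a chromatin protein related to the SMC family and needed to keep the inactive X chromosome and some imprinted genes silent. Tumour cells were purified by cell sorting, with sort markers, animal age and sex not given in the sources used here, and 1 array was run per lymphoma.

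Ribosomal proteins fold around the ribosomal RNAs, and the cell makes nearly all of them in equal numbers. Their mRNAs are among the most abundant of a growing cell, they carry a run of pyrimidines at the 5′ end through which the mTOR pathway sets their translation, and Myc raises their transcription. In Eµ-Myc mice, loss of a copy of Rpl24 is known to slow lymphoma growth, which makes ribosome supply a studied feature of this tumour. Several ribosomal proteins also bind Mdm2 when assembly fails and thereby stabilise p53.

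The sequences around annotated transcription starts show the feature that most of these genes share besides their names. RefSeq windows of 250 bases before to 50 bases after a start (build GRCm38.p6) were found for 51 of the 67 genes. A run of at least 6 pyrimidines that reached within 5 bases of the start was present in 29 of the 51 genes, or 56.9%, against 6227 of 27025 genes with a window, or 23.0%. The letters CCGGAAG on either strand, a core of ETS family sites, were in 23 of the 51, or 45.1%, against 9.93% of all genes. The E-box CACGTG, which Myc binds with Max, was in 6 of the 51, or 11.8%, against 8.09%. These letters were chosen after the sequences had been seen, and a match is a description of the window, not a site shown to act. The 30 bases from 15 before to 15 after the first listed start are printed for genes that return below, Rps6 (chr4:86857353-86857382, minus strand), Rpl28 (chr7:4792950-4792979, plus strand), Rplp2 (chr7:141447636-141447665, plus strand) and Rpl39 (chrX:37085208-37085237, minus strand), then for 5 paralogues, Rpl22l1 (chr3:28805493-28805522, plus strand), Rps27l (chr9:66946071-66946100, plus strand), Rpl39l (chr16:10170213-10170242, plus strand), Rpl3l (chr17:24727811-24727840, plus strand) and Rpl7l1 (chr17:46782642-46782671, minus strand). Capitals mark the longest pyrimidine run that reached within 5 bases of the start, where it had at least 6 bases. Runs further from the start, as in Rpl28 and Rpl39, are not marked.
Rps6: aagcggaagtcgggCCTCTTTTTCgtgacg
Rpl28: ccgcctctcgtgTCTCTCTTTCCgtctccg
Rplp2: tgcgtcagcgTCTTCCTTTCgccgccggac
Rpl39: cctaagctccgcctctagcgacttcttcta
Rpl22l1: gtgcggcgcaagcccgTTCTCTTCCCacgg
Rps27l: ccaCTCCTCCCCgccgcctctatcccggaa
Rpl39l: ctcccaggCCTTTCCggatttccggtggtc
Rpl3l: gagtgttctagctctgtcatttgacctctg
Rpl7l1: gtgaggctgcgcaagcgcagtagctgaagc
The runs of Rps6, Rpl28 and Rplp2 were 10, 11 and 10 bases long, and the longest at the start of Rpl39 was 5. Rpl22, Rpl23, Rps13 and Rps19 also had no run of 6 at any listed start. Among the paralogues, Rpl22l1, Rps27l and Rpl39l held a run of at least 6 pyrimidines at this start and Rpl3l and Rpl7l1 did not.

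Across the series, 14905 to 17724 of 45281 probes were detected per array. Through its brightest detected probe, Smchd1 itself lay between 9.45 and 10.39 on the log2 scale in the wildtype lymphomas. In the null lymphomas it lay between 5.11 and 6.83, a difference of -4.33 ± 0.28 (standard error) with no overlap. The difference was -1.98 when its detected probes were averaged. Where these probes lie relative to the gene trap is not given in the sources used here. The B-cell gene Ms4a1 was at 5.27 in wildtype 2 and at 5.06 in null 2, against 6.69 to 10.05 in the other 10 lymphomas, and Ebf1 and Pax5 were also lowest in null 2 and next lowest in wildtype 2. Cd79b was at 12.12 and 12.06 in these 2 lymphomas. Cd22, Blnk and Vpreb3 did not single them out. Cd22 was at 10.33 in wildtype 2 and 10.13 in null 2, and lowest in wildtype 4, at 9.23. Blnk was at 9.76 and 9.49, and lowest in wildtype 3, at 8.75. Vpreb3 was at 8.03 and 9.21, and lowest in null 5, at 7.95. The mean over 8 B-cell markers ran from 7.38 to 10.46 in the wildtype and from 7.38 to 9.73 in the null lymphomas, and that over 7 T-cell markers from 5.66 to 8.29 and from 4.99 to 9.77. Because of the markers that were lowest there, results are also given without wildtype 2 and null 2. The arrays sat on 2 BeadChips, the glass slides that each carry several arrays: BeadChip 1 held wildtype 1, 2 and 3 with null 4, 5 and 6, and BeadChip 2 held wildtype 4, 5 and 6 with null 1, 2 and 3. Mean raw intensity was 523.9 to 599.1 on BeadChip 1 and 254.6 to 468.8 on BeadChip 2. In bulk RNA, fewer cells of a type and less RNA per cell cannot be told apart.

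For most ribosomal protein genes the brightest probe was among the brightest of the array in every lymphoma. A probe counted as detected where its detection p was under 0.05, and a gene was tested through its brightest probe detected on at least 3 of the 12 arrays. By this rule 61 of the 67 genes were tested, beside 13483 genes in all, and 58 of the 61 were detected on all 12 arrays. Of the 61 probes, 45 lay in the brightest 2% of all probes on all 12 arrays and 55 in the brightest 10%. These 61 were taken for their brightness. Of all 99 probes, 78 were detected on all 12 arrays and 9 on no array. The mean log2 intensity was 13 or more for 44 genes and below 9 for 6. The brightness of a probe depends on its sequence as well as on its mRNA, so these values do not rank the genes by abundance.

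The dim genes were a mixture of paralogues and main genes. Rpl3l, Rpl6 and Rpl22l1 were the 3 tested genes not detected on every array, with 5, 11 and 10 arrays detected, and Rps18, Rps15a and Rpl21 completed the 6 genes below 9. Rpl6, Rps18, Rps15a and Rpl21 are constitutive components of the ribosome, so low signal from their probes is not a level of their mRNA that can be set against the others. Among the 6 genes that were not tested, Rpl17, Rpl39l, Rps20 and Rps23 were detected on no array, and Rpl14 and Rps4l were each detected on 1. Their log2 values lay between 4.23 and 5.05 on every array. Rpl39l is known mainly from male germ cells, while Rpl14, Rpl17, Rps20 and Rps23 belong to every ribosome, so 4 of these 6 dim probes stand for ubiquitous proteins. Rpl39, the main gene beside Rpl39l, ranged from 13.42 to 14.06. Many ribosomal protein genes have processed pseudogenes with near-identical sequence, and their part in these probe signals was not tested.

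**Figure D1:**
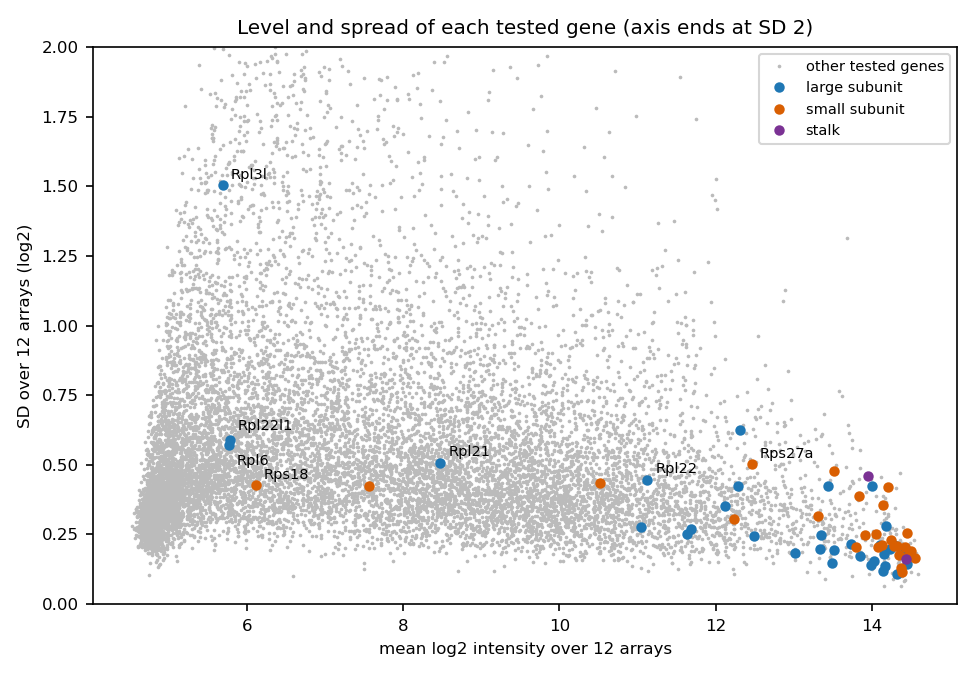
Mean log2 intensity (horizontal axis) against the SD over the 12 lymphomas (vertical axis, log2) for each tested gene, grey for other genes and coloured for ribosomal protein genes by subunit. Most ribosomal protein genes sit at the bright, narrow end, with Rpl3l, at an SD of 1.503, far above the rest.

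Ribosomal protein genes varied less between lymphomas than the typical gene. Their median SD over the 12 arrays was 0.23 on the log2 scale, against 0.46 over all genes tested. Of the 61 genes, 40 (65.6%) had an SD under 0.3, a range that held 16.6% of all genes, and 8 had an SD above the median of all genes. Bright probes vary less on this array in general: the 296 genes of any kind with a mean of 13 or more had a median SD of 0.26, and the 44 ribosomal protein genes among them had 0.20. The 17 ribosomal protein genes below 13 had 0.43, near the 0.46 of all genes. The large subunit's 33 tested genes had a median SD of 0.21 and the small subunit's 26 had 0.24. With each BeadChip centred first, the median SD was 0.15 for ribosomal protein genes and 0.43 for all genes, and without wildtype 2 and null 2 the values were 0.22 and 0.45. Under median scaling of the arrays in place of quantile normalization, which gives every array the same set of values, the median SD was 0.52 against 0.63 over all genes.

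The steadiest 6 genes were Rpl37, Rps13, Rpl18, Rps6, Rpl3 and Rpl28, with SDs of 0.11 to 0.14. Rps6, the small-subunit protein that S6 kinases phosphorylate, ranged from 14.14 to 14.39 in the wildtype lymphomas and from 14.26 to 14.60 in the null lymphomas. Rps13, which binds the central domain of the small subunit's RNA, ranged from 14.36 to 14.59 and from 14.10 to 14.45. The genotypes overlapped for both genes. The standard error from the beads of 1 array had a median of 0.075 over the tested ribosomal protein genes, and the SD between lymphomas was at least 1.43 times that error, with a median ratio of 3.22.

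The most variable genes included Rpl3l, Rpl22l1, Rpl6, Rpl21 and Rps27a. Rps27a, which encodes ubiquitin fused to a small-subunit protein, had an SD of 0.50, and its lowest value, 11.12, was in wildtype 1, against 12.13 to 12.94 in the other 11 lymphomas. Rpl21 had 3 probes, and its brightest ran from 7.54 in wildtype 1 to 9.13 in null 2. Wildtype 1 held the highest value of 21 of the 61 genes and the lowest value of 11, and null 2 the highest of 12 and the lowest of 13.

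**Figure D2:**
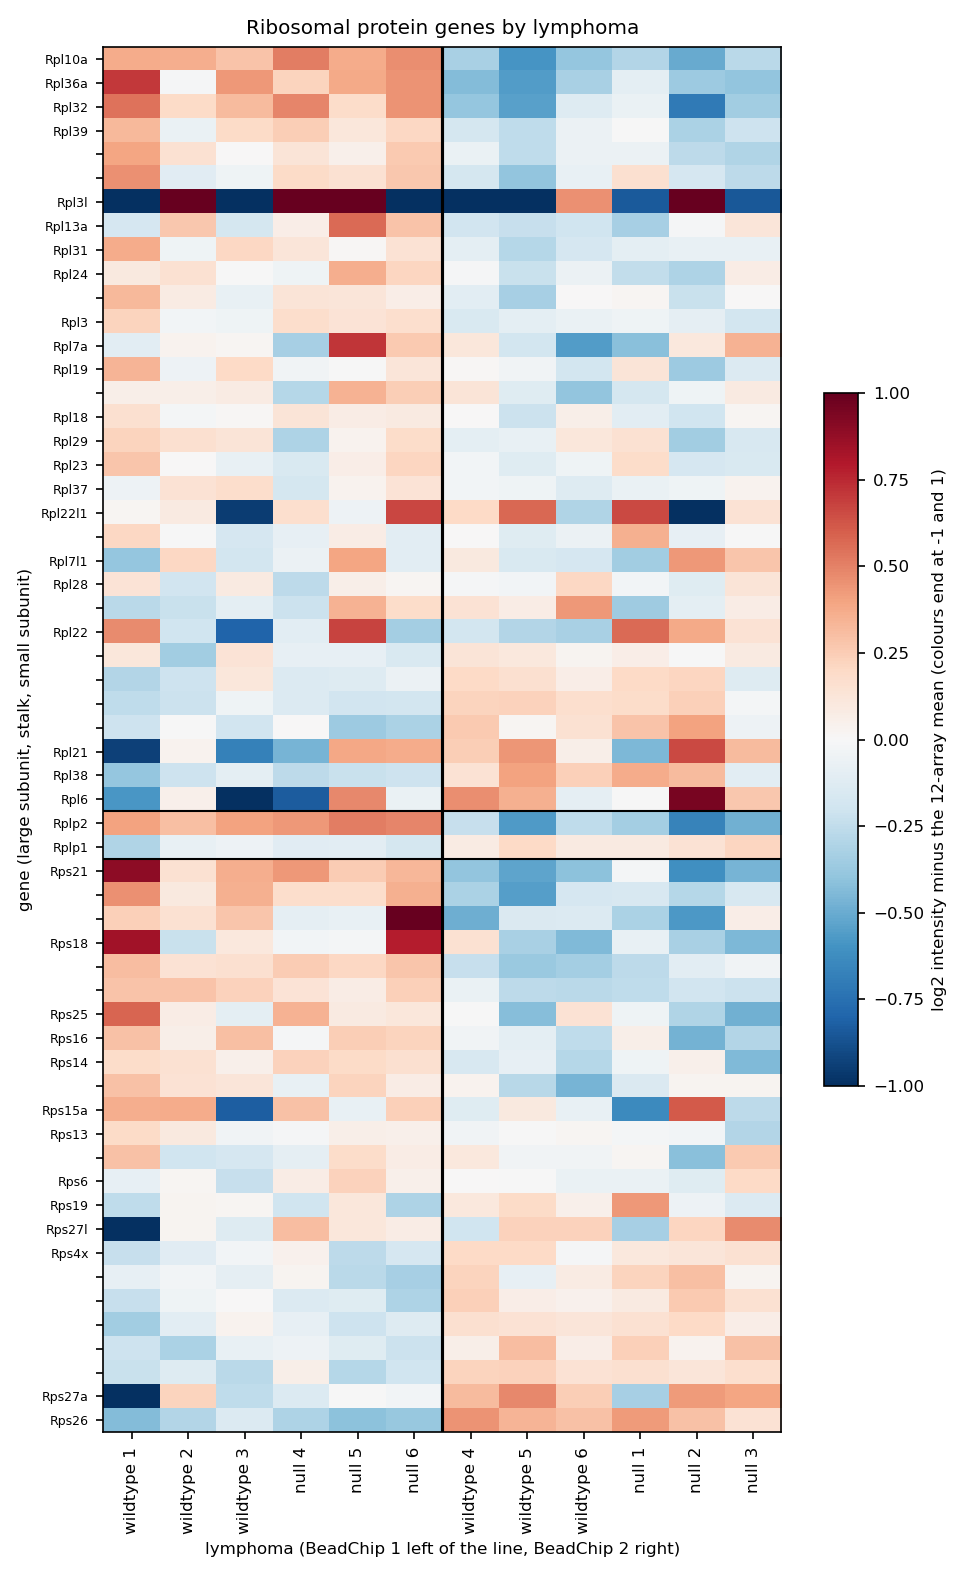
Log2 intensity of 58 tested ribosomal protein genes minus the 12-array mean of each (colour, ending at -1 and 1), with genes in rows by subunit, those named in the text labelled, and lymphomas in columns by BeadChip. Most colours are pale, the blocks on either side of the BeadChip line differ for genes such as Rpl10a, Rplp2 and Rps26, and Rpl3l changes from lymphoma to lymphoma.

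The question that the design puts to each gene is whether its mRNA differs between Smchd1 null and wildtype lymphomas. No ribosomal protein gene passed the test: limma called 0 of the 61 at an adjusted p under 0.05, against 3 of 13483 genes (0.0223%), Smchd1 among them. At an unadjusted p under 0.05, 0 of the 61 passed, against 194 of all genes (1.44%). The genotypes failed to overlap for 0 of the 61 genes and for 11 of all genes (0.0816%). The null minus wildtype difference was above 0 for 36 and below 0 for 25, with a median of 0.0080 against -0.0033 over all genes, and under median scaling 16 of the 61 were above 0, with a median of -0.06 against -0.05. Differences stayed within 0.25 of 0 for 56 of the 61 (91.8%), against 72.8% of all genes. This share went with level. With a mean of 13 or more it was 97.7% of 44 ribosomal protein genes and 97.6% of 296 genes of any kind. For the 17 ribosomal protein genes below 13 it was 76.5%.

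These tests bound the differences and do not show equality. The 95% interval of a ribosomal protein gene reached a median of 0.37 to either side of the estimate on the log2 scale, and the narrowest reached 0.29. For genes with a mean of 13 or more, the widest reached 0.61. With BeadChip as a block, limma called 0 of the 61, none had an unadjusted p under 0.05 and the median standard error fell from 0.17 to 0.13. Within the BeadChips, 29 of the 61 genes had the same sign on both. The same count was not made over all genes, so it is not read as a trait of these genes. Without wildtype 2 and null 2, limma called 0 of the 61, with a median difference of 0.06.

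**Figure D3:**
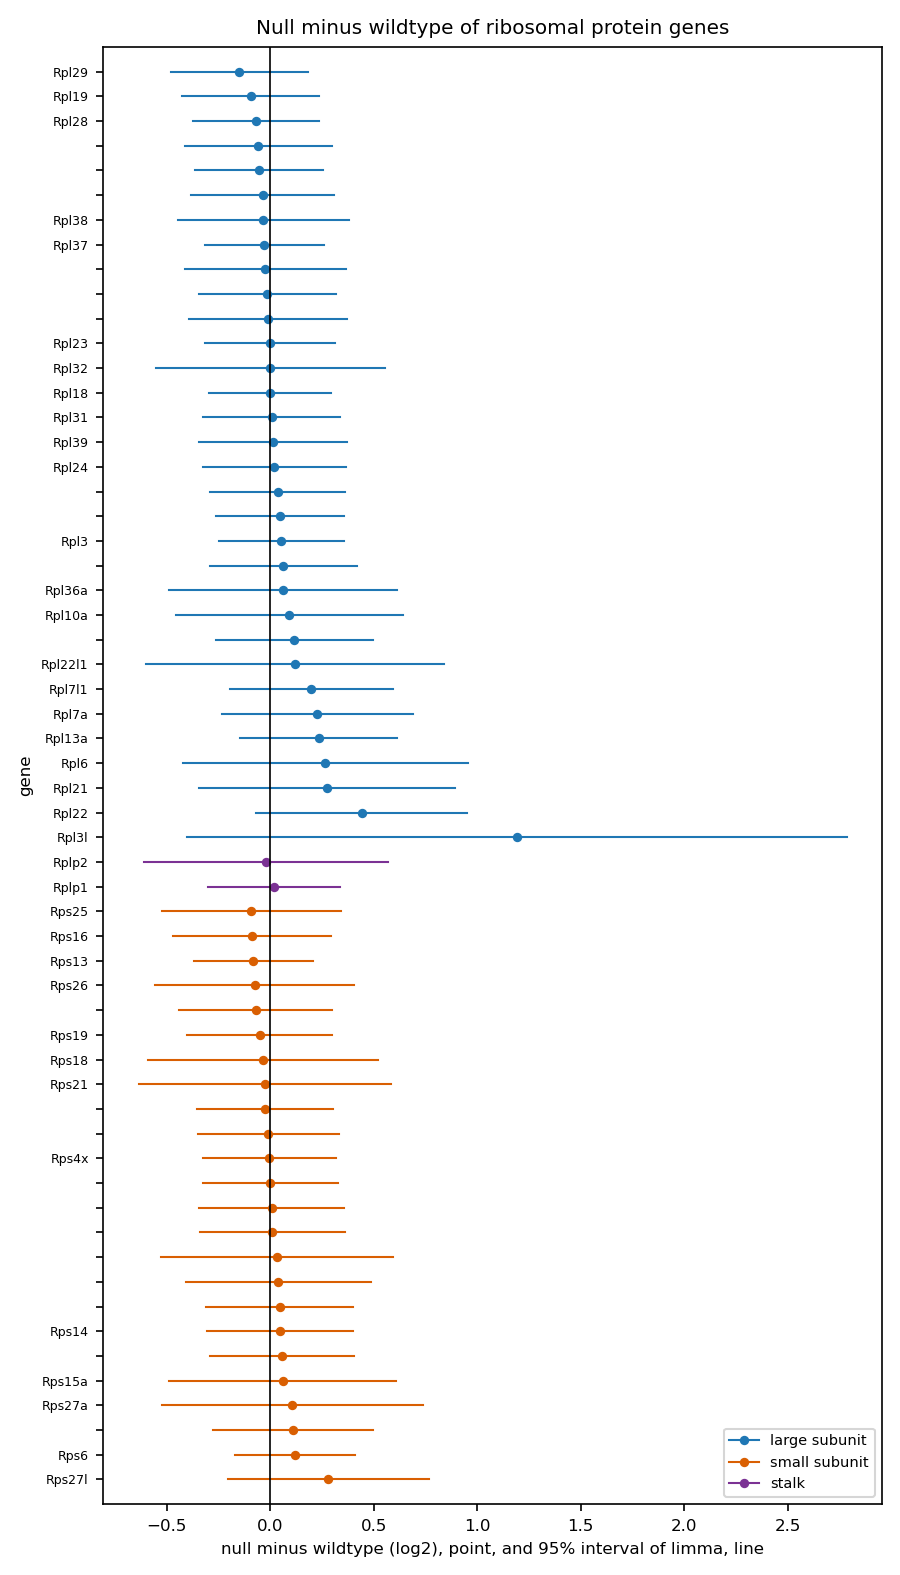
Null minus wildtype difference (log2, points) with limma's 95% interval (lines) for 58 tested ribosomal protein genes, sorted within large subunit, stalk and small subunit, with those named in the text labelled. Every interval drawn holds 0, and the widest is that of Rpl3l, from -0.40 to 2.78.

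No gene of either subunit passed. Of the large subunit's 33 tested genes, 21 were higher and 12 lower in the null lymphomas, with a median of 0.02, and 29 lay within 0.25 of 0. Of the small subunit's 26, 14 were higher and 12 lower, with a median of 0.0022, and 25 lay within 0.25. The stalk genes Rplp1 and Rplp2 differed by 0.02 ± 0.15 and -0.02 ± 0.27. The X-linked genes Rpl36a, Rpl39 and Rps4x differed by 0.06 ± 0.26, 0.01 ± 0.17 and -0.0036 ± 0.15. Eif2s3y, a gene of the Y chromosome, was detected in 6 wildtype and 5 null lymphomas. Male cells hold no inactive X, so these differences do not test silencing of the inactive X by Smchd1.

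In the large subunit the smallest unadjusted p belonged to Rpl22, which binds viral and cellular RNAs and is needed in mice for αβ T-cell development. Its log2 values were 11.60, 10.93, 10.33, 10.94, 10.84 and 10.80 in wildtype 1 to 6 and 11.69, 11.51, 11.28, 11.02, 11.80 and 10.79 in null 1 to 6. The groups overlapped: 5 of the 6 null lymphomas lay above 5 of the 6 wildtype lymphomas, while wildtype 1 lay inside the range of the null lymphomas. The difference was 0.44 ± 0.24, with limma's unadjusted p at 0.0844 and adjusted p at 1.00. It was 0.25 on BeadChip 1 and 0.63 on BeadChip 2, and 0.59 without wildtype 1, with unadjusted p values of 0.0273 on BeadChip 2 and 0.0192 without wildtype 1 and adjusted p values of 1.00 in both.

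The other genes with the smallest p in the upward direction were Rpl3l, Rpl13a, Rps27l, Rpl7l1 and Rpl7a. Rpl13a, a large-subunit protein that can leave the ribosome to repress inflammatory mRNAs, differed by 0.23 ± 0.17, and Rpl7a by 0.23 ± 0.21. Downward they were Rpl29, Rpl19, Rps13, Rps16, Rpl28 and Rps25. Rpl29, which in mice affects growth and bone size, differed most of these, by -0.15 ± 0.15, and ranged from 13.42 to 13.74 in wildtype and from 13.17 to 13.70 in null lymphomas. Rps25, used by viral internal ribosome entry sites, differed by -0.09 ± 0.20. None of these 12 passed, with adjusted p values of 1.00 from limma for each.

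Genes known for disease or signalling roles did not pass either. Rps19, the gene most often mutated in Diamond-Blackfan anaemia in humans, differed by -0.05 ± 0.16 and Rps14, lost in the human 5q deletion syndrome, by 0.05 ± 0.16. Rpl38, which in mice affects translation of Hox mRNAs, differed by -0.03 ± 0.19. Rpl23, an Mdm2-binding protein, differed by -0.0023 ± 0.15 and Rps27a by 0.11 ± 0.29.

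The paralogues had different detection and spread. Rpl3l, a large-subunit protein that replaces Rpl3 in heart and skeletal muscle, was detected in 2 wildtype and 3 null lymphomas. Its log2 values were 4.57, 6.68, 4.35, 4.49, 4.31 and 6.14 in wildtype 1 to 6 and 4.85, 8.64, 4.84, 6.998, 7.76 and 4.62 in null 1 to 6. The 5 lymphomas above 6 came from both genotypes and both BeadChips, the other 7 lay below 5, and the highest value was in null 2. Null minus wildtype was 1.19 ± 0.74, 0.74 without null 2 and 1.06 without wildtype 2 and null 2, with limma's adjusted p at 1.00 in the comparison of all 12. The 4 lymphomas with the highest Rpl3l, null 2, null 5, null 4 and wildtype 2, were also the 4 with the lowest Ms4a1, at 5.06, 6.76, 6.69 and 5.27. Other B-cell genes did not give the same 4. Ebf1 and Cd79b were lowest in null 2, wildtype 2 and null 5, but stood at 7.26 and 13.62 in null 4. Vpreb3 in null 4 was at 13.99, the highest of the 12 lymphomas. The part of B-cell content in the Rpl3l values was not tested. Rpl3, its main gene, which reaches towards the peptidyl transferase centre, ranged from 13.99 to 14.40 over the 12 lymphomas and differed by 0.05 ± 0.14.

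Rpl22l1, the paralogue that Rpl22 is known to repress, was close to background, with values of 4.83 to 6.36 in wildtype and 4.55 to 6.45 in null lymphomas. Its difference was 0.12 ± 0.33, but 0.54 on BeadChip 1 and -0.30 on BeadChip 2. The lowest value, 4.55, was in null 2, where Rpl22 was at 11.51, and wildtype 3, at 4.83, had the lowest Rpl22, 10.33. A relation between these genes was not tested.

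Rps27l, a paralogue of Rps27 and a known target of p53, was bright in every lymphoma. Its log2 values were 12.84, 13.86, 13.70, 13.64, 14.06 and 14.06 in wildtype 1 to 6 and 13.50, 14.05, 14.31, 14.14, 13.95 and 13.91 in null 1 to 6. Wildtype 1 was lowest and the groups overlapped. The difference was 0.28 ± 0.23, and 0.11 without wildtype 1, 0.53 on BeadChip 1 and 0.03 on BeadChip 2. Cdkn1a, another p53 target, was lowest in null 1, null 5 and wildtype 1, at 4.64, 4.83 and 5.11, and Rps27l was at 13.50, 13.95 and 12.84 in these lymphomas. A relation between these genes was not tested. Rpl7l1, a paralogue of Rpl7, differed by 0.20 ± 0.18 through its brighter probe and by -0.06 through its dimmer one.

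**Figure D4:**
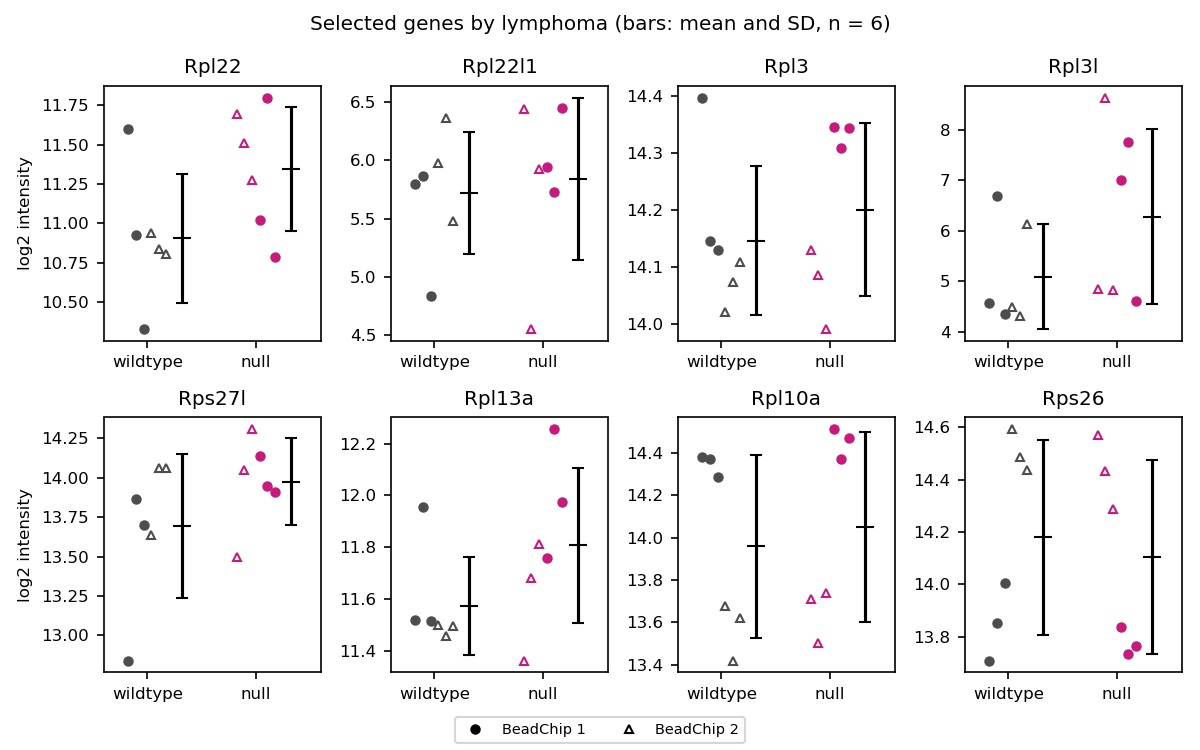
Log2 intensity of 8 ribosomal protein genes in each lymphoma (circles for BeadChip 1, triangles for BeadChip 2), with mean and SD of each genotype (bars, n = 6); each panel has its own vertical axis. Wildtype and null overlap in all 8 panels, while circles and triangles separate completely for Rpl10a and Rps26.

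Probes of the same gene did not always give the same sign. Of 19 genes with at least 2 tested probes, 8 had probes whose null minus wildtype differences took both signs. The widest gap among those was in Rpl38, with -0.03 for the bright probe and 0.25 for the other. The widest gap of all 19 was in Rpl31, whose 3 probes ran from 0.01 to 0.46. In both genes the brightest probe, at 14.18 and 14.15, gave the value nearest 0. None of the genes passed when the detected probes were averaged.

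More genes passed when the BeadChips were compared. With genotype in the model, limma called 1 ribosomal protein gene higher on BeadChip 2, beside 68 of all genes (0.504%), and 6 lower, beside 294 of all genes (2.18%). Rps26, a small-subunit protein at the mRNA exit channel, ranged from 13.71 to 14.00 on BeadChip 1 and from 14.29 to 14.59 on BeadChip 2, a difference of 0.65 ± 0.12 with limma's adjusted p at 0.0176. Rpl10a, the protein of the large subunit's side stalk at the tRNA exit, ranged from 14.29 to 14.51 on BeadChip 1 and from 13.42 to 13.74 on BeadChip 2, a difference of -0.79 ± 0.12 with an adjusted p of 0.0073.

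Rplp2, Rps21, Rpl36a and Rpl32 were also called lower on BeadChip 2, with differences of -0.72 to -0.85. Rplp1, which pairs with Rplp2 in the stalk, lay in the opposite direction at 0.27 ± 0.12, with an adjusted p of 0.248 from limma. Arrays of the BeadChips did not overlap for 19 ribosomal protein genes, 8 of them higher on BeadChip 2, where 1.28% of all genes were, and 11 lower, where 3.05% were. By subunit, these were 6 large-subunit, 11 small-subunit and both stalk genes. By p, Rpl38 came next to Rps26 in the upward direction, at 0.46 ± 0.13, and did not pass, with limma's adjusted p at 0.0979.

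The BeadChip calls moved with the scaling of the arrays and with the lymphomas included. Without wildtype 2 and null 2, 1 ribosomal protein gene, Rplp2, and 89 genes in all were called by limma, with an adjusted p of 0.0499 for Rplp2. The differences themselves were about as large with these 10 arrays, at -0.73 for Rpl10a, -0.82 for Rps21, -0.79 for Rpl36a and 0.63 for Rps26. Without background correction 14 were called, beside 451 of all genes, and with a background offset of 50 there were 12, beside 428. Median scaling moved the median of all genes to -0.61 and called 39 ribosomal protein genes, all lower on BeadChip 2, beside 4298 of all genes. It left Rps26 at 0.08, which is 0.69 above that median, and Rpl10a at -1.39, which is 0.79 below it. Relative to the same median, 39 of the 61 genes lay below and 22 above. Array brightness, the BeadChip and anything else processed with it cannot be told apart here.

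Over all 61 genes, each lymphoma stayed within 0.16 of the mean lymphoma. The position of a lymphoma was the median over the genes of its log2 value minus the gene's 12-array mean. Wildtype 1 was highest at 0.16, followed by null 6 at 0.12 and null 5 at 0.09, and wildtype 5 was lowest at -0.10, followed by null 2 at -0.08. The wildtype mean was 0.0040 ± 0.0896 (SD, n = 6) and the null mean 0.0146 ± 0.0766 (SD, n = 6). On BeadChip 1 the means were 0.06 for wildtype and 0.07 for null, and on BeadChip 2 they were -0.05 and -0.04. Every array of BeadChip 2 lay below 0, between -0.10 and -0.01, and the arrays of BeadChip 1 lay between -0.01 and 0.16.

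The subunits' medians lay about 0.10 or less apart within each lymphoma, a gap as large as many of the positions themselves. The large-subunit median minus the small-subunit median ran from -0.10 in wildtype 5 to 0.10 in null 6. In wildtype 1 both were high, at 0.14 for the large and 0.19 for the small subunit. The large subunit was at -0.12 and the small at -0.02 in wildtype 5, and at -0.09 and 0.0010 in null 2. Under median scaling the positions spread from -0.64 in null 2 to 0.54 in null 6, with all 6 arrays of BeadChip 1 above 0 and all 6 of BeadChip 2 below.

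**Figure D5:**
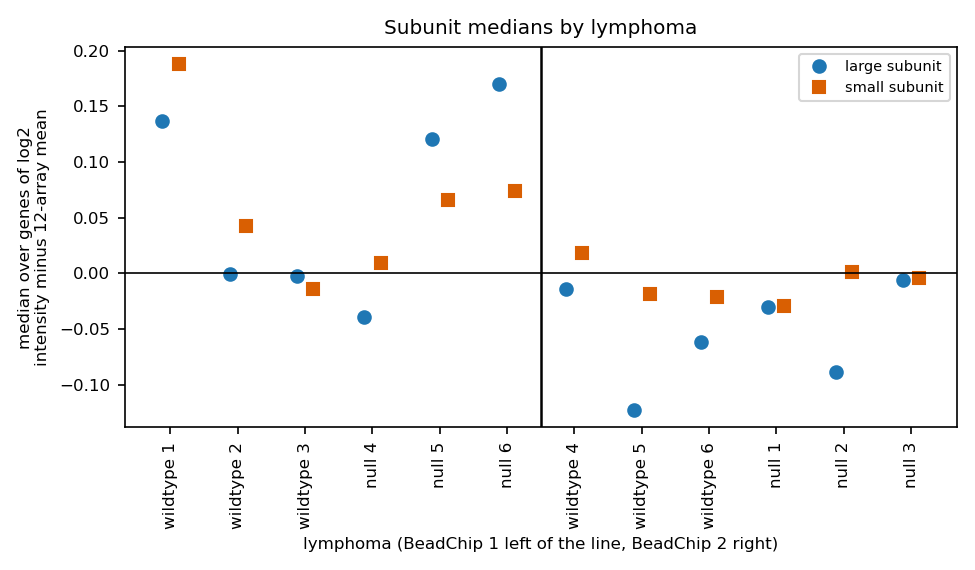
Median over the large-subunit genes (circles) and small-subunit genes (squares) of log2 intensity minus the 12-array mean, for each lymphoma, with BeadChip 1 left of the line. Medians stay between -0.12 and 0.19, and wildtype and null lymphomas are mixed on each BeadChip.

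No gene passed between genotypes in the lists related to the cytosolic ribosome or in that of the mitochondrial ribosome. Of 4 ribosomal proteins whose names fall outside the rule, Rpsa, Rpl36al and Gnb2l1 among them, none passed, with Rpl36al, a paralogue of Rpl36a, at -0.02 ± 0.17. Among 68 tested mitochondrial ribosomal protein genes limma called 0, with 46 higher and 22 lower in the null lymphomas and a median of 0.05. Their smallest p values in each direction were those of Mrpl9, at 0.45 ± 0.31, and Mrpl52, at -0.32 ± 0.25.

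Among 57 genes named as translation initiation or elongation factors limma called 0, with a median of 0.01. The smallest p values there belonged to Eif2ak3, a stress kinase that phosphorylates eIF2α, at -0.39 ± 0.22, and Eif4ebp2, a repressor of eIF4E, at -0.29 ± 0.16, neither of which is itself a factor. Of 14 other mRNAs with a 5′ pyrimidine run 0 were called, 7 being higher and 7 lower, with Eif4b at 0.33 ± 0.25. Of 19 ribosome assembly factors 0 were called, with a median of 0.07 and Mrto4, known from yeast to act in stalk assembly, at 0.33 ± 0.29. Myc differed by 0.09 ± 0.31 and Trp53 by -0.11 ± 0.23, and neither passed. Over these lists the median SD was 0.42 for mitochondrial ribosomal proteins and assembly factors, 0.37 for translation factors and 0.30 for the other pyrimidine-run mRNAs, beside the 0.23 of the cytosolic ribosomal proteins. Their median log2 intensities were 10.79, 10.61, 10.68 and 12.97 in the same order, beside 13.96. The lists were not compared at matched level, so the lower SD is not read as particular to cytosolic ribosomal proteins.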

How the data were processed

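For each probe and array the authors deposited the mean intensity of its beads, with the SD and number of beads, as GenomeStudio 1.6.0 exported them with normalization off, per the file headers. The deposited detection values are a fraction, 1 minus the detection p-value against the array's negative controls. The deposited series matrix holds log2 values made by the authors with limma's neqc, per the deposited readme. Limma 3.12.1, R 2.15.1 and BeadStudio appear in the submitters' processing notes.

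Here raw intensities were background-corrected by normexp with 936 negative control probes, given an offset of 16, quantile normalized and put on the log2 scale (R 4.3.3, limma 3.58.1). These values differed from the deposited log2 values by at most 0.131, with a median of 0.0054. Probes detected at p under 0.05 on at least 3 arrays were kept (18921 of 45281). Genes were grouped by target name, through the brightest kept probe, giving 13483. Of the 67 ribosomal protein names, 65 matched a RefSeq symbol and 2 a synonym (GRCm38.p6).

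Null minus wildtype was fitted with limma (lmFit, eBayes) over 12 arrays without covariates, and BeadChip 2 minus BeadChip 1 with genotype as covariate, each with Benjamini-Hochberg adjustment over all genes. Errors after ± are moderated standard errors unless marked SD. Groups and replicate numbers come from the sample titles, and the labels do not say that replicates are separate animals, so p-values measure the spread between these samples. The number of arrays limits precision.

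The ribosomal protein genes and the related lists were chosen with earlier results of these data known. Named genes are those past the threshold, the 6 with the smallest p in each direction, the 6 with the largest and smallest SD, the 3 with the largest BeadChip difference each way, paralogue pairs, genes with probes of opposite sign, genes not detected on every array and a set list of well-studied genes. Rps21, Rpl36a and Rpl32 are named as called genes of the BeadChip comparison, and Rps18, Rps15a and Rpl31 were chosen after their values were seen. Some genes that the rule takes are not reported here. Protein sequences were not used here. The fits were tested on simulated data. Other background corrections, scalings, probe filters, probe averaging, array weights, blocks and left-out arrays were tried.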

Additional observations from a re-analysis of the deposited data

Results flagged for a closer look

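Within each genotype, the highest and lowest of the 6 lymphomas were compared with their nearest neighbour by Dixon's ratio, for which chance flags about 1 in 20 groups. Of 106 groups examined, over the named genes, 7 were flagged. This is near the share that chance gives, so the flags are listed as a description only. Wildtype 1 gave 4 of the 7. It was the highest wildtype lymphoma for Rpl3, at 14.40 against 14.15 for the next, and for Rpl23, at 14.30 against 14.02. It was the lowest for Rps27l, at 12.84 against 13.64, and for the assembly factor Mrto4, at 9.39 against 10.54. Wildtype 2 was the highest for Rpl13a, at 11.96 against 11.52. Null 3 was the lowest null lymphoma for Rps13, at 14.10 against 14.37, and null 2 was the lowest for Rpl27a, at 13.62 against 13.85.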

How the results depend on the processing

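Null minus wildtype called 0 ribosomal protein genes under every alternative run: no background correction, an offset of 50, median scaling, the deposited log2 values, no probe filter, detection on all 12 arrays, averaged probes, BeadChip as a block, each BeadChip alone, array weights, each array left out, and both replicates 2 left out, the last chosen after seeing the data. The number called over all genes was 3, and was 1 with detection on all 12 arrays, 1 on BeadChip 1 alone and 0 on BeadChip 2 alone, where each fit had 6 arrays. Leaving out each array in turn gave 3 to 5 genes, 5 being the count without wildtype replicate 2. The replicate block gave 3 genes, 0 ribosomal protein genes and a median of 0.01. Deviations of same-numbered lymphomas correlated at -0.26 to 0.68, and 2 of 6 numbers matched best with their own, so the numbers were not read as pairs. The median SD of ribosomal protein genes was 0.52 under median scaling. For the BeadChip difference, ribosomal protein calls went from 7 to 14 without background correction, 12 with the offset of 50 and 39 under median scaling, and to 1 without both replicates 2, while calls over all genes went from 362 to 451, 428, 4298 and 89 in the same order. Positions under median scaling were 0.41, 0.30, 0.35, -0.25, -0.46 and -0.23 for wildtype 1 to 6 and -0.60, -0.64, -0.10, 0.26, 0.44 and 0.54 for null 1 to 6. The cause of these shifts was not tested. The sign of null minus wildtype was not stable for uncalled genes. Of 36 tested ribosomal protein genes chosen for naming, 8 changed sign under median scaling and 10 without wildtype replicate 5. With no background correction, an offset of 50 or BeadChip as a block, 0 of the 36 did.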
